A study of Mus musculus with 12 samples.

Results

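Glutathione synthesis and the genes driven by NRF2 were followed as a set of 10 genes in mouse kidney: Gclc, Gclm, Gss, Gsr, Ggt1, Ggt6, Nqo1, Hmox1, Txnrd1 and Srxn1. The genes were chosen by name for their roles in the pathway, with earlier results of these data known. All 10 were found among the 21004 genes of the deposited expression table, and all 10 were among the 12281 genes tested. Each of the 4 groups held 3 libraries of whole kidney RNA from ICR mice, an outbred stock, aged 8 weeks. One group received busulfan plus L.J. at 10 mg/kg, one busulfan, and one L.J. at 10 mg/kg alone, and one was the control group. The series title asks whether L.J. relieves the harm that busulfan does to the kidney, and the design text speaks of FMT. The labels used here do not say what L.J. stands for, how it relates to FMT, what dose of busulfan was given, how or when either agent was given, or which sex the mice were. Whether each library stands for an animal of its own is not stated either, so p-values here measure only the spread between libraries, and some of that may be technical.

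Busulfan is an alkylating drug that is removed from the body chiefly by conjugation to glutathione. Glutathione is built from glutamate, cysteine and glycine by glutamate-cysteine ligase and then glutathione synthetase, and the proximal tubule of the kidney carries large amounts of gamma-glutamyltransferase, which breaks it down outside the cell. NRF2, encoded by Nfe2l2, is a transcription factor that KEAP1 marks for degradation. When it escapes degradation it pairs with small MAF proteins and binds antioxidant response elements in its target genes, while BACH1 competes for such elements and represses Hmox1 in particular.

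Promoter sequences are shown because part of the set is named for a regulator, NRF2. The set also holds genes of glutathione synthesis and breakdown, and not every member is taken here as an NRF2 target. Genes that differed between groups can also be set against the letters near their starts. RefSeq windows of 300 bases on GRCm38.p6, running 250 bases before to 50 bases after a start, were listed for 7 of the 10 members in 12 windows, since Ggt1 has 4 and Txnrd1 has 3. Each window was searched on both strands for the core of the antioxidant response element, TGACNNNGC, and for the AP-1 core, TGACTCA. In capitals are the matches, which on the reverse strand read as the reverse complement, and no match overlapped another. Gclm lies on the plus strand at chr3:122245307-122245606 and Srxn1 on the plus strand at chr2:152105274-152105573.
Gclm: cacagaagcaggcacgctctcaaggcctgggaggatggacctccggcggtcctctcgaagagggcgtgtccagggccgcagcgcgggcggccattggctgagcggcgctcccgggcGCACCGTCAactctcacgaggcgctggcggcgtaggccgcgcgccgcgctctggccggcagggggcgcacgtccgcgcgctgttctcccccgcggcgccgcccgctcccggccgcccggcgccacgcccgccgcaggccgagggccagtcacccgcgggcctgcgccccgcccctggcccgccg
Srxn1: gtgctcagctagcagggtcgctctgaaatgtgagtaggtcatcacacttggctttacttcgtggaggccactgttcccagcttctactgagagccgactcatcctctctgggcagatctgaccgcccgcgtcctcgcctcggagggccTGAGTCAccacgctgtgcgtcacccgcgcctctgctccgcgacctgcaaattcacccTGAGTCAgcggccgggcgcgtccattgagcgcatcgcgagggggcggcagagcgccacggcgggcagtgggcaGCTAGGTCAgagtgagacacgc
The Gclm window held 1 antioxidant response core, on the reverse strand with its leftmost base at position -134 from the start. The Srxn1 window held 1 such core at position 29 and 2 AP-1 cores at positions -102 and -45, all on the reverse strand. The 2 members whose busulfan libraries all lay above the control libraries, Ggt6 and Nqo1, and the synthetase gene Gss held neither core in their windows. Ggt6 lies on the plus strand at chr11:72435276-72435575, Nqo1 on the minus strand at chr8:107403156-107403455 and Gss on the minus strand at chr2:155592761-155593060.
Ggt6: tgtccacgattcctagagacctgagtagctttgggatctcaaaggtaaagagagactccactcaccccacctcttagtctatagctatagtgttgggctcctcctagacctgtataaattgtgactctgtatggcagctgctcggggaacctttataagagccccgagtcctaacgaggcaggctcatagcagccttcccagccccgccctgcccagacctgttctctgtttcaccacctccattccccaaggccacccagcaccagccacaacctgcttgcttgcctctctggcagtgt
Nqo1: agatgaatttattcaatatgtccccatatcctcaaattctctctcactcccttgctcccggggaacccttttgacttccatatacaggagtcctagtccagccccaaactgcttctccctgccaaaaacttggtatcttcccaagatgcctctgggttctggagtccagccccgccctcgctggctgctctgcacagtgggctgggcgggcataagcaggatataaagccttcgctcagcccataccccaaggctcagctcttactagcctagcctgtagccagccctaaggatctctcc
Gss: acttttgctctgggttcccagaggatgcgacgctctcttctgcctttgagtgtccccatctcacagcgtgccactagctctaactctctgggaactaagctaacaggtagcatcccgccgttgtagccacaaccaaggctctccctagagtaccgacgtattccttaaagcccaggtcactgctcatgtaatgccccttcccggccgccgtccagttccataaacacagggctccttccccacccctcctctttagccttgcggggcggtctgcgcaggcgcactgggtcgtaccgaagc
Among the other windows, 3 of the 4 for Ggt1 and 1 of the 3 for Txnrd1 held the antioxidant response core. That makes 6 of the 12 windows, from 4 of the 7 genes. The same core was in 12.39% of all 32851 windows in the table and in 14.25% of the 12551 windows of tested genes, and the AP-1 core was in 5.202% of all windows. A match is only a run of letters, and a window without one says nothing of elements that lie elsewhere.

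On the FPKM scale, which is per gene length and scaled to library size, mean levels over the 12 libraries can be set in order. Ggt1 was far above the others, with a mean of 618.9 FPKM and a range of 366.28 to 792.66. Gss averaged 132.8 and Gclm 122.8 FPKM, and their ranges overlapped. Gclc followed at 81.2 FPKM and Gsr at 61.3 FPKM, also with overlapping ranges. Txnrd1 averaged 38.4 FPKM, Hmox1 28.5, Nqo1 21.1 and Srxn1 18.7, and each of these overlapped its neighbour in the order. Ggt6 was the lowest, at 4.40 FPKM with a range of 0.16 to 14.26, and it varied more than any other member: its SD over the 12 libraries on the log2(FPKM + 1) scale was 1.33. Txnrd1 varied least, with an SD of 0.08, and lay between 34.18 and 42.08 FPKM.

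The third busulfan library stood apart from the other two busulfan libraries, and most results below depend on it. On the first principal component of all tested genes, which held 41.8% of the variance, busulfan 1 and 2 lay at -40.4 and -47.3, busulfan 3 at 10.5, and the other 9 libraries between 1.9 and 16.9. Nothing in the labels separates it from its group. Its deviations also followed gene length, with a Spearman correlation across genes of -0.511, and GC content, with one of 0.356. Other libraries showed such correlations too, from -0.066 to 0.301 for length and from -0.291 to 0.134 for GC content. Busulfan 3 also had the largest sum of FPKM, at 541844, against 481937 to 507383 in the other libraries, and relative depth estimated from 220 genes ran from 0.912 to 1.075. The kidney itself was plain in every library: the 9 proximal tubule markers summed to 5467 to 7115 FPKM in busulfan plus L.J., 5396 to 7064 in busulfan, 6258 to 6726 in L.J. and 5549 to 6641 in control kidneys. Each result is therefore given with all 12 libraries and, where it matters, without busulfan 3. Without it the busulfan group holds 2 libraries. It was singled out because its values differ from theirs, so p-values without it leave out its part of the spread. They describe busulfan 1 and 2 and do not measure the spread of the whole busulfan group.

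**Figure D1:**
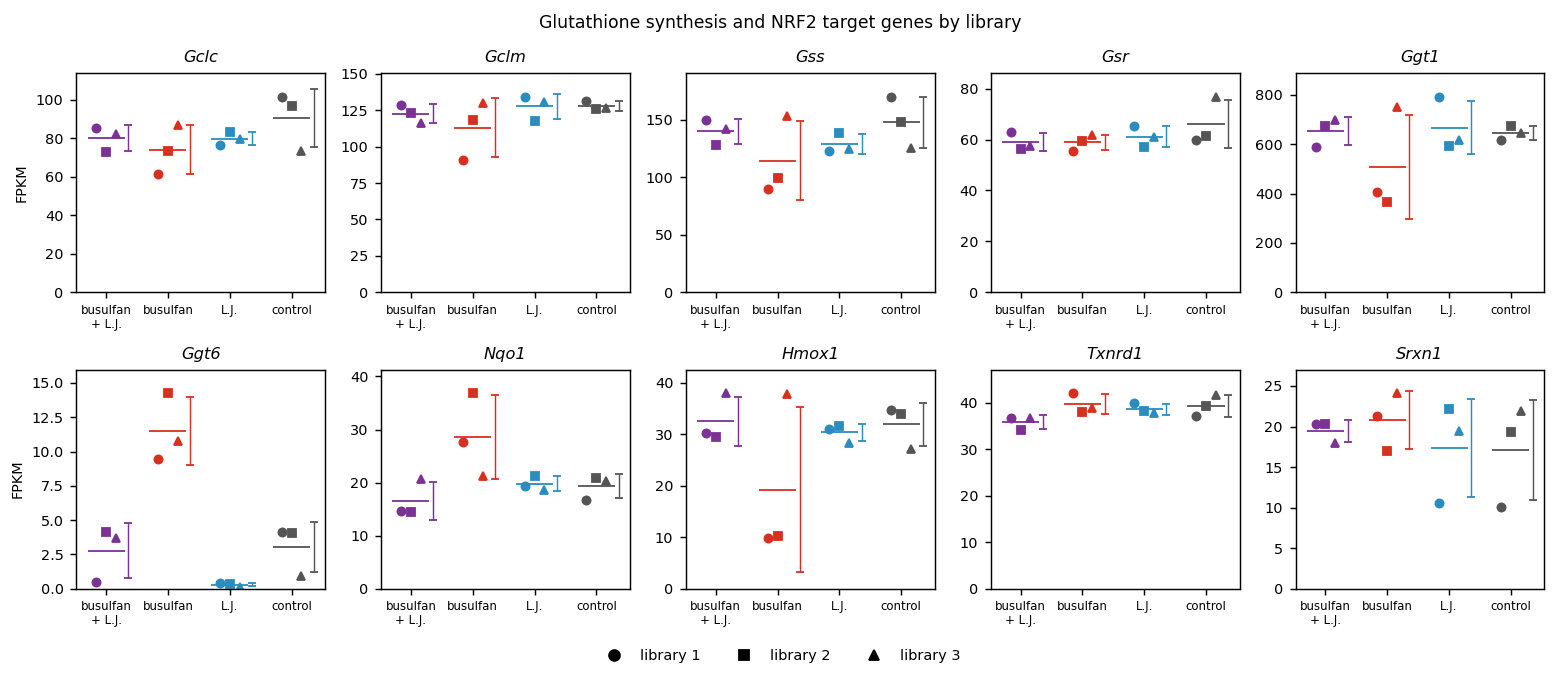
FPKM of each of the 10 genes in every library, 1 panel a gene and 1 point a library, with a horizontal line at each group mean and a bar of 1 SD either side. Groups run from busulfan plus L.J. to control. Hmox1 shows 2 busulfan libraries near 10 FPKM and the third at 37.71, and all 3 busulfan libraries lie above the control libraries for Ggt6 and Nqo1.

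In busulfan kidneys set against control kidneys, Ggt6 and Nqo1 were the members with higher values in every library, and Hmox1 was the member furthest below control, in 2 of the 3 libraries. The genes of glutathione synthesis and its reductase had lower estimates, by 0.16 to 0.40 on the log2(FPKM + 1) scale. In the limma test across 12281 genes with Benjamini-Hochberg adjustment, 0 of the 10 members passed an adjusted p of 0.05, where 1.44% of all tested genes did, 0.725% higher and 0.717% lower. At an unadjusted p under 0.05 there were 4 members, Ggt6, Nqo1, Hmox1 and Gss, against 22.7% of all genes. The groups did not overlap for 2 of the 10 members, against 22.0% of all genes. The median change of the 10 members was -0.17, beside 0.083 over all tested genes.

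The picture changed when busulfan 3 was left out, which leaves 2 busulfan libraries. Then 6 of the 10 members passed, 2 of them higher and 4 lower in busulfan kidneys, where 32.5% of all tested genes passed, 24.4% higher and 8.12% lower. Nqo1 and Ggt6 rose, and Hmox1, Ggt1, Gss and Gclc fell. Leaving out that library also moved the median of all genes to 0.148. With median-of-ratios scaling added, which brought that median to 0.004, 3211 of the 12281 genes passed, 1480 higher and 1731 lower, so the balance of directions over all genes turned round. Of the members 7 passed there: Nqo1 higher, and Hmox1, Ggt1, Gss, Gclc, Gclm and Gsr lower, while Ggt6 kept an estimate of 1.62 with a limma adjusted p of 0.0509.

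**Figure D2:**
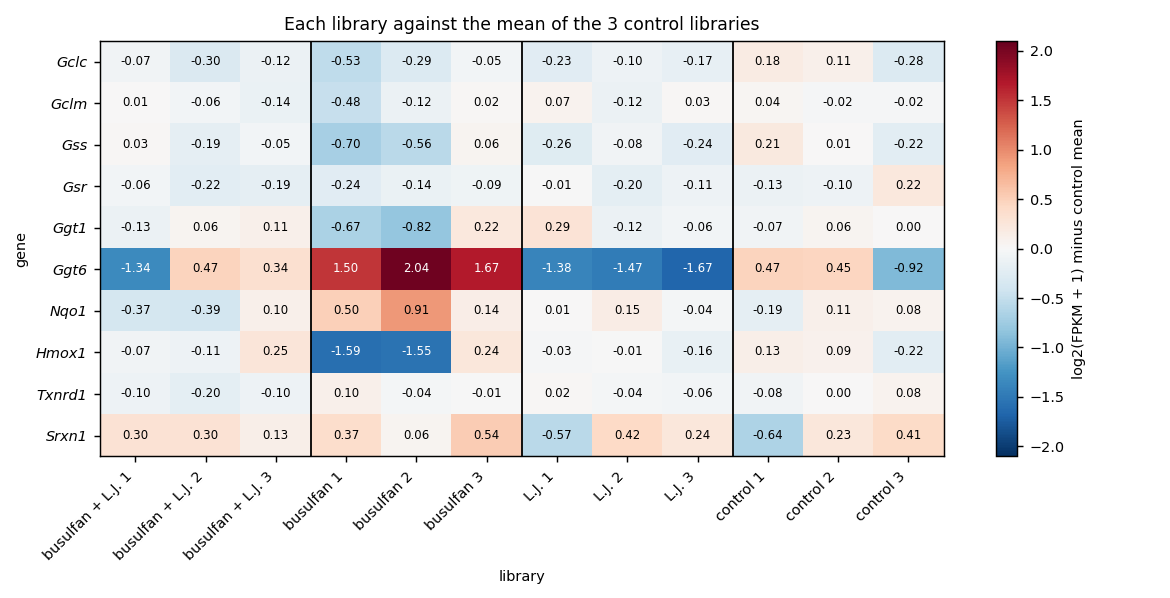
Difference of each gene in each library from the mean of the control libraries on the log2(FPKM + 1) scale, with genes down the page and libraries across it from busulfan plus L.J. to control. Busulfan 1 and 2 stand out for Hmox1, at -1.59 and -1.55, while busulfan 3 is at 0.24, and the 3 L.J. libraries lie between -1.38 and -1.67 for Ggt6.

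When L.J. was given with busulfan and the kidneys were set against busulfan alone, Ggt6 fell and was the single member of 10 to pass with all libraries. In that comparison 3.24% of all tested genes passed, 2.06% lower and 1.18% higher. That is 253 genes lower and 145 higher, a balance that turned to 222 lower and 309 higher under median-of-ratios scaling and to 254 lower and 402 higher under quantile normalization. Nqo1 lay just outside the threshold, and at an unadjusted p under 0.05 there were 3 members, Ggt6, Nqo1 and Hmox1, against 23.4% of all genes. For 3 members, Ggt6, Nqo1 and Txnrd1, every busulfan plus L.J. library lay below every busulfan library, against 19.2% of all genes without overlap. Without busulfan 3, 5 members passed, where 31.6% of all genes did, 7.98% higher and 23.6% lower: Hmox1, Ggt1 and Gss rose, and Ggt6 and Nqo1 fell. With median-of-ratios scaling added, 3160 genes passed, 1708 higher and 1452 lower, and 7 members passed, 5 higher and 2 lower. Both comparisons use the same busulfan libraries, so opposite signs in them are not separate evidence.

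Neither L.J. alone nor busulfan plus L.J. moved a member past the threshold when set against control kidneys. For L.J. alone, limma called 0 of the 10 members and 0.0% of all genes, and at an unadjusted p under 0.05 there was 1 member, Ggt6, against 2.74% of all genes. For busulfan plus L.J. against control, limma called 0 of 10 members and 0.00814% of all genes, and no member had an unadjusted p under 0.05, against 2.87% of all genes. The interaction, which asks whether busulfan acted differently with L.J. than without it, called 0 of 10 members and 0.0163% of all genes. Its 1 member at an unadjusted p under 0.05 was Nqo1, against 11.7% of all genes. Without busulfan 3 the interaction called 4 members, Hmox1, Ggt1, Gss and Nqo1, where 12.1% of all genes passed, while L.J. alone and busulfan plus L.J. against control still called 0 of 10 members.

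**Figure D3:**
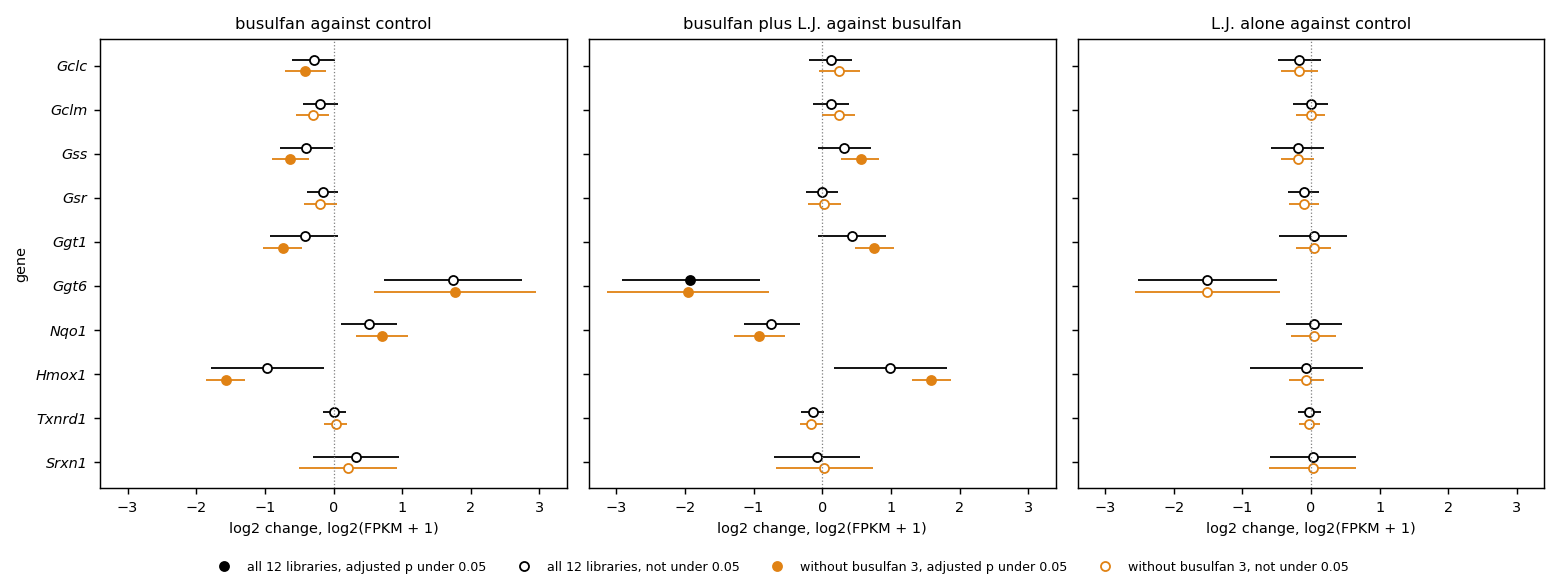
Log2 change of each gene, first group minus second on the log2(FPKM + 1) scale, with its 95% confidence interval from limma, for 3 comparisons, in black with all 12 libraries and in orange without busulfan 3, filled where the adjusted p is under 0.05. The interval for Hmox1 in busulfan against control runs from -1.79 to -0.14 with all libraries and from -1.86 to -1.29 without busulfan 3. Intervals in orange leave out the spread that busulfan 3 adds.

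Glutamate-cysteine ligase carries out the rate-limiting step of glutathione synthesis, and Gclc encodes its catalytic subunit. Gclc, on chromosome 9 at 77754535 to 77794489, had 85.63, 72.72 and 82.35 FPKM in busulfan plus L.J., 61.74, 73.47 and 87.02 in busulfan, 76.67, 83.54 and 79.53 in L.J. and 101.67, 96.69 and 73.68 in control kidneys. The busulfan libraries spread more widely than those of either L.J. group and overlapped the control libraries. In busulfan the mean was 74.1 ± 12.7 FPKM, against 90.7 ± 14.9 in control kidneys (SD, n = 3 each), a log2 change of -0.29 with an SE of 0.14 and a limma adjusted p of 0.249. Without busulfan 3 Gclc fell by 0.41 (SE 0.14, limma adjusted p = 0.0409).

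Gclm encodes the modifier subunit, which makes the ligase more efficient. It had 128.82, 122.98 and 116.25 FPKM in busulfan plus L.J., 91.09, 118.01 and 130.12 in busulfan, 134.25, 117.8 and 130.89 in L.J. and 131.58, 125.87 and 126.29 in control kidneys. Busulfan 1 was the one low library, and busulfan 3 lay inside the control range. The change in busulfan against control was -0.19, with a 95% interval of -0.45 to 0.07 and a limma adjusted p of 0.350. Without busulfan 3 it was -0.30 with a limma adjusted p of 0.0533. Gclm shares its locus with a pseudogene and a long noncoding RNA, and the strand setting of the counting is not given, so reads from these cannot be told apart from its own.

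Glutathione synthetase, the product of Gss, adds glycine in the closing step. Gss had 149.47, 128.28 and 142.2 FPKM in busulfan plus L.J., 90.21, 99.56 and 153.61 in busulfan, 122.83, 138.86 and 124.45 in L.J. and 170.05, 148.22 and 125.71 in control kidneys. Busulfan 1 and 2 lay below all 9 libraries of the other groups, and busulfan 3 lay above all but control 1. The means were 114.5 ± 34.2 FPKM in busulfan and 148 ± 22.2 in control kidneys (SD, n = 3 each), and the log2 change was -0.40 (SE 0.18, limma adjusted p = 0.210). Without busulfan 3 Gss fell by 0.63 in busulfan against control (SE 0.12, limma adjusted p = 0.00413) and rose by 0.56 in busulfan plus L.J. against busulfan (SE 0.12, limma adjusted p = 0.00780). The interaction without that library was 0.75 (limma adjusted p = 0.0170), and with it 0.52 (limma adjusted p = 0.450). A long noncoding RNA, Gssos2, overlaps Gss, which leaves its values uncertain in the same way as those of Gclm.

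Gsr encodes glutathione reductase, which returns oxidised glutathione to its reduced form. It had 62.9, 56.25 and 57.47 FPKM in busulfan plus L.J., 55.54, 59.44 and 61.6 in busulfan, 65.33, 57.23 and 60.95 in L.J. and 60.01, 61.4 and 76.83 in control kidneys. Apart from control 3, every library lay between 55.54 and 65.33 FPKM. In busulfan against control the change was -0.16, with a 95% interval of -0.38 to 0.07. In busulfan plus L.J. against busulfan it was 0.00, and the interval of -0.23 to 0.23 bounds the difference. A pseudogene and a small nucleolar RNA overlap Gsr. With all libraries, these 4 genes had lower estimates in busulfan than in control kidneys in 4 of 4 cases, with a median of -0.24, and none passed the test. In L.J. against control those 4 estimates had a median of -0.14, beside -0.031 over all tested genes. Gclm was at -0.0 there, and at 0.03 under median-of-ratios scaling. In busulfan plus L.J. against control the 4 estimates lay below 0, with a median of -0.11 beside -0.001 over all tested genes. These 3 comparisons share the control libraries, and none of the 4 genes passed in any of them with all libraries.

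Gamma-glutamyltransferase 1, on the brush border of proximal tubule cells, cleaves glutathione outside the cell and returns its amino acids. Its gene Ggt1 had 589.56, 672.97 and 698.96 FPKM in busulfan plus L.J., 405.42, 366.28 and 751.23 in busulfan, 792.66, 592.88 and 617.45 in L.J. and 617.01, 674.5 and 647.58 in control kidneys. Busulfan 1 and 2 were the lowest of the 12 libraries and busulfan 3 the second highest. With all libraries the log2 change in busulfan against control was -0.42 (SE 0.23, limma adjusted p = 0.286). Without busulfan 3 Ggt1 fell by 0.74 in busulfan against control (SE 0.13, limma adjusted p = 0.00225), and it rose by 0.76 in busulfan plus L.J. against busulfan (SE 0.13, limma adjusted p = 0.00215). The proximal tubule markers named above summed to 5774 and 5396 FPKM in busulfan 1 and 2 and to 5549 to 6641 in control kidneys. Single markers differed from that sum: Slc22a6, an organic anion transporter, had 332.82 and 258.56 FPKM in busulfan 1 and 2, against 505.04 to 593.58 in control kidneys, and Slc7a13 had 371.91 and 328.45, against 519.01 to 623.1, while Aqp1, a water channel, had 362.29 and 455.55, against 228.18 to 242.86. The 7 male-biased proximal tubule genes also moved with Ggt1, with sums of 12400 and 6479 FPKM in busulfan 1 and 2, 55540 in busulfan 3 and 37060 to 53540 in control kidneys. Kap made most of these sums, with 10397.65 and 5030.86 FPKM in busulfan 1 and 2 and 50482.1 in busulfan 3. Each of the 7 was lower in busulfan 1 and 2 than in every control library. The part of these markers in the lower Ggt1 values was not tested. Fewer cells of a type and less RNA per cell cannot be told apart in whole kidney RNA.

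Ggt6 belongs to the same family by sequence, and its substrate is less well known. This gene, on chromosome 11 at 72435247 to 72438566, had 0.46, 4.12 and 3.69 FPKM in busulfan plus L.J. kidneys and 9.45, 14.26 and 10.8 in busulfan kidneys. In L.J. kidneys it had 0.42, 0.34 and 0.16 FPKM, against 4.12, 4.06 and 0.96 in control kidneys. Here busulfan 3 went with its group: all 3 busulfan libraries lay above the other 9, and the 3 L.J. libraries lay below the other 9. The share of all tested genes with such a split of 3 libraries from 9 was not counted. Between pairs of groups, 22.0% of all genes did not overlap in busulfan against control and 13.0% in L.J. against control. Busulfan plus L.J. 1 was close to the L.J. libraries and its other two libraries were close to control 1 and 2.

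In busulfan against control, Ggt6 averaged 11.5 ± 2.48 FPKM in busulfan and 3.05 ± 1.81 in control kidneys (SD, n = 3 each), a ratio of means of 3.78. The log2 change was 1.74, with an SE of 0.46, a 95% interval of 0.73 to 2.74 and a limma adjusted p of 0.0731. Without busulfan plus L.J. 1 it passed, with the same change and a limma adjusted p of 0.0406, and without busulfan 3 the change was 1.77 with a limma adjusted p of 0.0290. In busulfan plus L.J. against busulfan, the mean was 2.76 ± 2.0 FPKM in busulfan plus L.J. and 11.5 ± 2.48 in busulfan kidneys (SD, n = 3 each). Ggt6 fell by 1.92 on the log2 scale there (SE 0.46, 95% interval -2.92 to -0.91, limma adjusted p = 0.0491). The call was narrow: it was lost without any 1 of 11 of the 12 libraries, where limma adjusted p ran from 0.0561 to 0.161, and it held without busulfan 3, at 0.0203. Over all 22 alternatives the change stayed between -2.46 and -1.26, and 19 of them lost the call, with limma adjusted p from 0.00254 to 0.273.

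In L.J. against control, Ggt6 averaged 0.307 ± 0.133 FPKM in L.J. and 3.05 ± 1.81 in control kidneys (SD, n = 3 each), with a log2 change of -1.51, a 95% interval of -2.52 to -0.50 and a limma adjusted p of 0.999. The groups did not overlap for this 1 member, against 13.0% of all genes. A log2(FPKM + 1) scale understates the change of a gene this low, and the number of reads behind such values is not known. The interaction for Ggt6 was -0.41, with a 95% interval of -1.83 to 1.02 and a limma adjusted p of 0.845. Sums of 7 hepatocyte markers were lower in both L.J. groups than in the groups without L.J.: they came to 9.55 to 15.9 FPKM in busulfan plus L.J., 36.1 to 78.9 in busulfan, 6.19 to 16.1 in L.J. and 35.98 to 95.7 in control kidneys. Ggt6 differed from these sums in part. In busulfan plus L.J. it overlapped control, with a change of -0.18, and in busulfan it was higher than control, where the sums overlapped. None of the 7 markers was at 0 throughout, and their part in the Ggt6 values was not tested.

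NAD(P)H quinone dehydrogenase 1, the product of Nqo1, reduces quinones and is among the best known NRF2 targets. Nqo1 had 14.65, 14.41 and 20.67 FPKM in busulfan plus L.J., 27.62, 36.86 and 21.28 in busulfan, 19.39, 21.33 and 18.66 in L.J. and 16.69, 20.84 and 20.31 in control kidneys. All 3 busulfan libraries lay above the control libraries, but busulfan 3 exceeded the highest of them only narrowly and lay inside the L.J. range. The means were 28.6 ± 7.84 FPKM in busulfan and 19.3 ± 2.26 in control kidneys (SD, n = 3 each), and the log2 change was 0.52 (SE 0.19, 95% interval 0.11 to 0.92, limma adjusted p = 0.137). In busulfan plus L.J. the mean was 16.6 ± 3.55 FPKM, against 28.6 ± 7.84 in busulfan kidneys, a change of -0.74 (SE 0.19, limma adjusted p = 0.0537). That change passed under quantile normalization, at a limma adjusted p of 0.0453.

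Without busulfan 3, Nqo1 rose by 0.71 in busulfan against control (SE 0.17, limma adjusted p = 0.0103). It fell by 0.92 in busulfan plus L.J. against busulfan (SE 0.17, limma adjusted p = 0.00303). The interaction was -0.78 with all libraries (limma adjusted p = 0.314) and -0.96 without busulfan 3 (limma adjusted p = 0.0213). Marker sums of several other cell types were higher in the same libraries. The 5 neutrophil markers summed to 4.52 to 6.97 FPKM in busulfan plus L.J., 76.2, 105.4 and 10.7 in busulfan, 5.35 to 7.27 in L.J. and 8.15 to 8.75 in control kidneys. S100a8, at 28.47 and 44.05 FPKM, and S100a9, at 32.62 and 51.85, made most of the sums in busulfan 1 and 2. Retnlg was also higher there, at 7.63 and 4.71 FPKM, against 0.12 to 0.13 in control kidneys. Ly6g had 5.56, 3.55 and 3.54 FPKM in busulfan, against 4.68, 3.87 and 4.91 in control kidneys. Csf3r had 1.88, 1.26 and 1.15, against 0.93, 0.95 and 1.14. The 5 intercalated cell markers summed to 77.5 to 94.1 FPKM in busulfan plus L.J., 180.1, 196.8 and 93.0 in busulfan, 71.8 to 87.05 in L.J. and 76.2 to 90.1 in control kidneys. The 6 principal cell markers summed to 188.6 to 224.7 FPKM in busulfan plus L.J., 334.6, 372.3 and 228.3 in busulfan, 154.9 to 192.8 in L.J. and 203.8 to 213.1 in control kidneys. The 4 distal convoluted tubule markers summed to 231.2 to 246.9 FPKM in busulfan plus L.J., 416.3, 323.4 and 268.5 in busulfan, 251.3 to 268.3 in L.J. and 206.6 to 257.4 in control kidneys. In none of these lists was a marker at 0 throughout, and their part in the Nqo1 values was not tested.

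Heme oxygenase 1, encoded by Hmox1, breaks heme down to biliverdin, iron and carbon monoxide. Hmox1 had 30.17, 29.4 and 37.97 FPKM in busulfan plus L.J., 9.87, 10.18 and 37.71 in busulfan, 31.02, 31.61 and 28.35 in L.J. and 34.77, 33.92 and 27.1 in control kidneys. Busulfan 1 and 2 were far below every other library, and busulfan 3 was the second highest of the 12. The group mean of 19.3 ± 16.0 FPKM in busulfan, against 31.9 ± 4.20 in control kidneys (SD, n = 3 each), describes no single library. The log2 change was -0.97 (SE 0.38, 95% interval -1.79 to -0.14, limma adjusted p = 0.163).

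Without busulfan 3, Hmox1 fell by 1.57 in busulfan against control (SE 0.13, limma adjusted p = 5.45e-05) and rose by 1.59 in busulfan plus L.J. against busulfan (SE 0.13, limma adjusted p = 5.35e-05). The interaction was then 1.66 (SE 0.17, limma adjusted p = 0.000644), and with all libraries it was 1.06 (SE 0.53, limma adjusted p = 0.467). The SD of the busulfan group was 0.219 FPKM without busulfan 3 and 16.0 FPKM with it. The small p-values without that library therefore do not measure the spread between the 3 busulfan libraries. With busulfan 3 as the only busulfan library, the change against control was 0.24. In both L.J. groups Hmox1 stayed near control: the change in L.J. against control was -0.07, with a 95% interval of -0.89 to 0.76, and in busulfan plus L.J. against control it was 0.02, with one of -0.80 to 0.85. The lower values in busulfan kidneys were thus those of 2 of the 3 libraries.

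Hmox1 is strongly expressed by macrophages that clear red cells. The 8 macrophage markers, 7 of them tested, summed to 40.0 to 70.7 FPKM in busulfan plus L.J., 55.3, 65.1 and 85.3 in busulfan, 49.6 to 66.5 in L.J. and 50.4 to 65.5 in control kidneys, so the sums in busulfan 1 and 2 lay within the control range. Single markers went both ways: Csf1r had 5.11 and 8.08 FPKM in busulfan 1 and 2, against 11.24 to 13.73 in control kidneys, while C1qa had 14.94 and 16.78 FPKM, against 8.9 to 12.63. Erythroid transcripts summed to 2505 to 3888 FPKM in busulfan plus L.J., 2248, 574.9 and 3518 in busulfan, 1374 to 1926 in L.J. and 1434 to 2698 in control kidneys, over 6 genes that include the globins. A list of 7 male-biased proximal tubule genes moved with Hmox1: it summed to 39330 to 47800 FPKM in busulfan plus L.J., 12400, 6479 and 55540 in busulfan, 42230 to 50890 in L.J. and 37060 to 53540 in control kidneys. Kap made most of each sum. The part of this list in the Hmox1 values was not tested.

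Thioredoxin reductase 1, encoded by Txnrd1, keeps cytosolic thioredoxin reduced. Txnrd1 had 36.66, 34.18 and 36.66 FPKM in busulfan plus L.J., 42.08, 38.11 and 38.86 in busulfan, 39.88, 38.13 and 37.72 in L.J. and 37.1, 39.21 and 41.64 in control kidneys. On the FPKM scale as deposited, the busulfan plus L.J. libraries lay below all 9 others, though by small steps. How many of all tested genes split in this way was not counted. In busulfan against control the change was 0.01, with a 95% interval of -0.15 to 0.18, and it turned to -0.08 under median-of-ratios scaling and to -0.05 under quantile normalization. In busulfan plus L.J. the mean was 35.8 ± 1.43 FPKM, against 39.7 ± 2.11 in busulfan kidneys, a change of -0.14 (SE 0.08, limma adjusted p = 0.274). Without busulfan 3 and with median-of-ratios scaling that change was 0.01 (limma adjusted p = 0.973). With library weights, which rest chiefly on busulfan 1, it was -0.26 (limma adjusted p = 0.000906). Against control, busulfan plus L.J. did not overlap for this 1 member, where 10.1% of all genes did not, and the change was -0.13 (limma adjusted p = 1.00). Txnrd1 overlaps Eid3, a protein-coding gene that is also in the table, and a long noncoding RNA.

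Sulfiredoxin 1, encoded by Srxn1, repairs peroxiredoxins that have been overoxidised, and its window above holds both kinds of core. Srxn1 had 20.25, 20.31 and 17.93 FPKM in busulfan plus L.J., 21.32, 16.97 and 24.12 in busulfan, 10.61, 22.11 and 19.4 in L.J. and 10.1, 19.28 and 21.92 in control kidneys. L.J. 1 and control 1 were low, and the other 10 libraries lay between 16.97 and 24.12 FPKM. The change in busulfan against control was 0.32, with a 95% interval of -0.30 to 0.95 and a limma adjusted p of 0.524, and in busulfan plus L.J. against busulfan it was -0.08, with an interval of -0.70 to 0.55.

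Genes with the most similar profiles over the 12 libraries were listed for the 3 members that varied most, Ggt6, Hmox1 and Srxn1, by Pearson's r of log2(FPKM + 1), as a description of libraries that share their RNA and depth. For Ggt6 they were Cd302 at 0.952, Plcd3 at 0.922 and Cldn3 at 0.917. Cd302, a C-type lectin receptor, had 25.49, 28.2 and 30.0 FPKM in busulfan plus L.J., 33.02, 38.85 and 34.1 in busulfan, 22.42, 24.41 and 24.38 in L.J. and 29.52, 28.87 and 27.11 in control kidneys, the same order of groups at smaller steps. For Hmox1 they were Ace, which encodes angiotensin-converting enzyme, at 0.985, Papss1 at 0.984 and Pecr at 0.984. These values rest on busulfan 1 and 2: Ace had 22.24 and 25.6 FPKM there, 116.16 in busulfan 3 and 86.48 to 116.92 in the other 9 libraries. For Srxn1 they were Hmgcs1 at 0.929, Cd47 at 0.867 and Slc15a4 at 0.861. Hmgcs1, which makes a precursor of cholesterol, was low in the same libraries, with 146.31 FPKM in L.J. 1 and 162.53 in control 1, against 206.9 to 267.27 in the other 10.

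The wider pathway was taken from 6 lists of 63 further genes, of which 55 were tested. Of these 55, limma called 0 in busulfan against control, where 1.44% of all genes passed, and 12 had an unadjusted p under 0.05, beside 22.7% of all genes. Estimates were higher for 33 and lower for 22, with a median of 0.11 beside 0.083 over all genes. In busulfan plus L.J. against busulfan 1 of 55 passed, Maff, which was lower, beside 3.24% of all genes, and 10 had an unadjusted p under 0.05, beside 23.4% of all genes. L.J. alone and busulfan plus L.J. against control called 0 of 55 each with limma, beside 0.0% and 0.00814% of all genes. At an unadjusted p under 0.05 there were 1 and 0, beside 2.74% and 2.87% of all genes. The interaction called 0, beside 0.0163% of all genes, and 5 had an unadjusted p under 0.05, beside 11.7% of all genes. Without busulfan 3, 11 rose and 9 fell in busulfan against control, where 24.4% of all genes rose and 8.12% fell. Without that library 7 rose and 10 fell in busulfan plus L.J. against busulfan, where 7.98% of all genes rose and 23.6% fell. The total shares called lay near those of all genes, at 32.5% and 31.6%, and are not a result about these lists.

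Nfe2l2 itself followed the split among the busulfan libraries. It had 38.08, 33.24 and 34.82 FPKM in busulfan plus L.J., 54.82, 63.61 and 34.64 in busulfan, 33.29, 32.16 and 34.43 in L.J. and 33.95, 36.64 and 39.58 in control kidneys. With all libraries the log2 change in busulfan against control was 0.42 (SE 0.17, limma adjusted p = 0.179), and without busulfan 3 it rose by 0.67 (SE 0.09, limma adjusted p = 0.000734). Bach1, the repressor of Hmox1, had 5.58, 5.21 and 5.77 FPKM in busulfan plus L.J., 8.23, 8.14 and 4.71 in busulfan, 5.46, 4.95 and 5.85 in L.J. and 5.29, 5.38 and 5.95 in control kidneys. Its change was 0.26 with all libraries (limma adjusted p = 0.352), and without busulfan 3 it rose by 0.49 (SE 0.09, limma adjusted p = 0.00295). Keap1, which holds NRF2 down, overlapped in all groups, with 13.16, 13.85 and 14.99 FPKM in busulfan against 13.93, 13.27 and 14.81 in control kidneys and an interval of -0.19 to 0.19 for the change.

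Maff, a small MAF partner of NRF2 and of BACH1, was the list member that fell in busulfan plus L.J. against busulfan. It had 1.07, 1.09 and 1.03 FPKM in busulfan plus L.J., 2.93, 3.24 and 1.96 in busulfan, 1.27, 0.87 and 1.59 in L.J. and 1.03, 0.59 and 1.59 in control kidneys. Like Ggt6, it was higher in all 3 busulfan libraries than in the other 9, a split whose share among all tested genes was not counted. It fell by 0.83 in busulfan plus L.J. against busulfan (SE 0.20, limma adjusted p = 0.0489), and its change in busulfan against control was 0.85 (SE 0.20, limma adjusted p = 0.0543). The call was narrow, and outside busulfan Maff lay near the filter of 1 FPKM. Genes called in that comparison fell from 398 to between 1 and 86 when any 1 library other than busulfan 3 was left out.

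**Figure D4:**
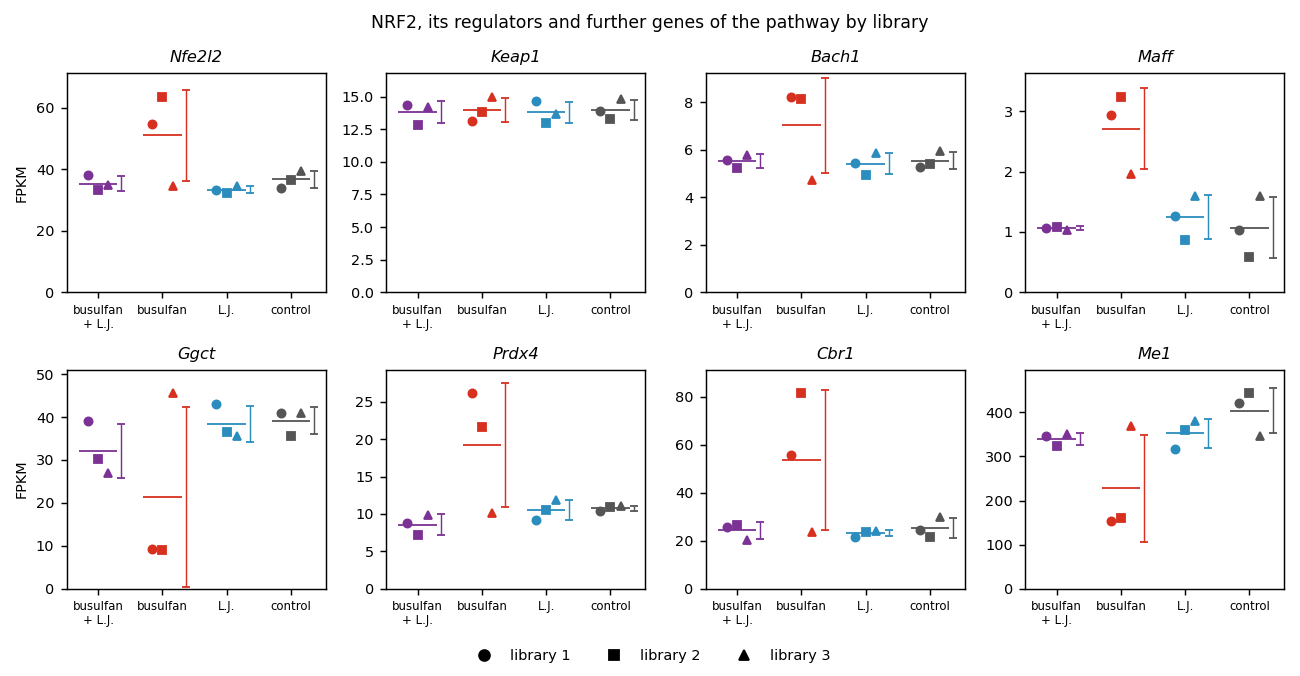
FPKM of selected genes of the wider pathway in every library, 1 panel a gene and 1 point a library, with a line at each group mean and a bar of 1 SD either side, groups from busulfan plus L.J. to control. Nfe2l2 and Bach1 are high in busulfan 1 and 2 and not in busulfan 3, Keap1 overlaps in all groups, and Maff is highest in the 3 busulfan libraries.

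A few further genes of these lists are named because of their values and so support no test. Ggct, which acts on gamma-glutamyl amino acids after glutathione breakdown, had 9.28, 9.13 and 45.57 FPKM in busulfan, against 41.0, 35.63 and 40.92 in control kidneys, the same split as Hmox1. Lap3, a leucine aminopeptidase that can split cysteinylglycine, had 141.61, 146.0 and 244.12 FPKM in busulfan, against 273.96, 279.59 and 269.65 in control kidneys, where busulfan 3 was also the nearest to control but did not overlap it. Me1, an NADPH-producing malic enzyme, had 153.68, 160.24 and 368.47 FPKM in busulfan, against 421.69, 443.6 and 346.01 in control kidneys. On the other side, Prdx4, a peroxiredoxin of the secretory pathway, had 26.16, 21.59 and 10.07 FPKM in busulfan, against 10.4, 10.88 and 11.06 in control kidneys. Cbr1, a carbonyl reductase, had 55.9, 81.57 and 23.61 FPKM in busulfan, against 24.61, 21.63 and 29.91 in control kidneys. With all libraries limma adjusted p was 0.139 for Ggct, 0.0616 for Lap3, 0.0814 for Me1, 0.155 for Prdx4 and 0.144 for Cbr1. Slc7a11, the cystine carrier known as an NRF2 target in other cells, was at or below 0.06 FPKM in every library and was not tested.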

How the data were processed

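Kidney RNA was sequenced in 12 libraries, 3 in each of 4 groups. The authors deposited 1 table of FPKM for 21004 genes, made per the submitters' processing notes with Bowtie 0.12.2 against mm10. The counting tool, the annotation and any use of strand were not given in the sources used here. FPKM holds no read counts, so depth in reads is unknown and no counting interval can be given, and differences in the makeup of a library move every value in it. 26 symbols that a spreadsheet had turned into dates were restored, and 1 duplicate was dropped.

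Values were taken as log2(FPKM + 1). Genes with at least 1 FPKM in at least 3 libraries were fitted, 12281 in all, with limma 3.58.1 (R 4.3.3), 1 mean per group over all 12 libraries, a variance trend with expression, and Benjamini-Hochberg adjustment over all fitted genes at 0.05. Tests were two-sided, and the script was tested on simulated data. Summaries and figures used Python 3.11.15, pandas 2.3.3 and matplotlib 3.10.9. The members, the gene lists and the comparisons were chosen with earlier results of these data known. Genes named were all 10 members, any wider list member that passed, Nfe2l2, Keap1 and Bach1, and the 3 closest profiles, by Pearson's r and leaving out predicted genes, for the 3 members with the largest SD over libraries, while others were picked after their values were seen. Alternatives changed the pseudocount to 0.1, the filter, the scaling, library weights, the groups fitted, a replicate block, a length and GC correction, and the libraries kept. Leaving out busulfan 3 with median-of-ratios scaling, and using it alone, were added after seeing the data.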

Additional observations from a re-analysis of the deposited data

How the results depend on the processing

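Members called, 0 in busulfan against control, 1 in busulfan plus L.J. against busulfan and 0 in the interaction, depended above all on 1 library. Leaving out 1 library at a time gave 0 to 6 members in busulfan against control, 0 to 5 in busulfan plus L.J. against busulfan and 0 to 4 in the interaction, with the highest count in each without busulfan 3. Over all tested genes 32.5%, 31.6% and 12.1% passed without that library. Without busulfan 3 and with median-of-ratios scaling the counts were 7, 7 and 4, and with library weights 8, 8 and 7. Among all 12281 tested genes, the former setting called 3211 in busulfan against control and 3160 in busulfan plus L.J. against busulfan. Library weights called 7312 and 7311 there. Counts over all genes for the interaction are given below. In the weighted fit busulfan 1 had a weight of 11.005, busulfan 2 one of 0.509 and busulfan 3 one of only 0.094. Its busulfan values are thus chiefly those of busulfan 1, and the estimation of the weights did not fully converge. In busulfan plus L.J. against busulfan the count was 0 with a pseudocount of 0.1, with no filter, with median-of-ratios scaling, with only the groups compared, with the replicate block, with the length and GC correction and with busulfan 3 alone in its group. Of 1090 alternative values for single members, 944 kept direction and side of the threshold, 72 changed sign without being called in either fit, 55 were newly called, 19 lost the call, all of them Ggt6 in busulfan plus L.J. against busulfan, and 0 called values changed sign.

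Over all genes, 177 were called in busulfan against control, 398 in busulfan plus L.J. against busulfan, 1 in busulfan plus L.J. against control, 0 in L.J. against control and 2 in the interaction. Leaving out 1 library at a time gave 0 to 3989, 1 to 3880, 0 to 2, 0 to 1 and 0 to 1489 in that order, again highest without busulfan 3 except for L.J. against control, which reached 1 without L.J. 3. With no filter the counts of the first 3 comparisons were 55, 150 and 0, and 1 for the interaction. Quantile normalization gave 503 (181 higher, 322 lower, beside 89 and 88) and 656 (402 higher, 254 lower, beside 145 and 253), and 0 for the interaction, and median-of-ratios scaling gave 394 (146 higher, 248 lower), 531 (309 higher, 222 lower) and 1 for the interaction. Library weights gave 7312, 7311, 105, 19 and 4145. With only the groups compared the counts of the first 3 were 0, 2 and 0. The length and GC correction gave 11 and 35 in the first comparisons, and 0 for the interaction. A pseudocount of 0.1 gave 0 in busulfan plus L.J. against control and 0 for the interaction. Without busulfan 3 and with median-of-ratios scaling the counts of the first 3 were 3211, 3160 and 2, with 1297 for the interaction, and with busulfan 3 alone in its group 0 in busulfan plus L.J. against control and 91 for the interaction, where its spread is assumed to be that of the other groups. The cause of these shifts was not tested, beyond fewer libraries or genes in some.

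Libraries of the same number did not pair: their deviations correlated between -0.239 and 0.081 in 18 pairs, and 0 pairs exceeded 0.1. With the replicate block the counts were 11 in busulfan against control, 4 in busulfan plus L.J. against busulfan, 0 in busulfan plus L.J. against control and 0 for the interaction, and Ggt6 had a limma adjusted p of 0.0696 in busulfan plus L.J. against busulfan. Depth in reads is unknown, which limits Ggt6 in the L.J. libraries most.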

Other observations

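Some further genes of the wider lists, picked after their values were seen, had values that the text above does not give. Gpx3, the secreted glutathione peroxidase that the proximal tubule makes, had 14091, 19525 and 16587 FPKM in busulfan plus L.J., 26613, 26552 and 22840 in busulfan, 24290, 20368 and 19020 in L.J. and 15955, 13623 and 20577 in control kidneys. All 3 busulfan libraries lay above the control and the busulfan plus L.J. libraries, and the change in busulfan against control was 0.62 (SE 0.26, limma adjusted p = 0.187). Ephx1, a microsomal epoxide hydrolase, had 24.4, 20.56 and 21.54 FPKM in busulfan plus L.J., 28.06, 51.92 and 19.08 in busulfan, 12.19, 16.02 and 15.45 in L.J. and 17.95, 16.45 and 15.62 in control kidneys. Both busulfan groups lay above both groups without busulfan for Ephx1, with a change of 0.83 in busulfan against control (SE 0.26, limma adjusted p = 0.106). Abcc4, an efflux pump for organic anions, had 5.9, 5.37 and 5.32 FPKM in busulfan plus L.J., 12.69, 10.98 and 5.21 in busulfan, 4.82, 6.05 and 5.98 in L.J. and 4.34, 4.95 and 6.12 in control kidneys, the split among busulfan libraries that Nfe2l2 shows.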
